A study of Mus musculus with 6 samples.

Results

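The acute phase protein genes described here are Saa1, Saa2, Saa3, Saa4, Orm1, Orm2, Orm3, Hp, Lcn2 and Apcs, 10 of the 30236 genes listed for a set of mouse liver tumors. They were found by their gene symbols, and all 10 were present and among the 22677 genes tested. The set was put together with earlier results of these tumors known, and Saa3 in particular was selected on its difference between the genotypes in these same libraries, so the differences between genotypes of the members are given as a description, without p-values. RNA from 6 liver tumors was sequenced, 3 from WT mice and 3 from mice lacking Top1mt on both alleles (Top1mt -/-, called KO), Top1mt being the topoisomerase of mitochondria. The animals were C57BL/6 males, WT and KO littermates bred from heterozygous parents. All had received the carcinogen diethylnitrosamine on postnatal day 14 and then carbon tetrachloride, which injures the liver, in injections from 8 weeks of age for 14 weeks, and the tumors were removed at 22 weeks of age. Tumors of similar size were taken for sequencing and RNA was drawn from whole tumor tissue, so each library mixes the cell types present. Tumor-free liver was not analysed here, and the levels are not set against normal liver.

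Acute phase proteins are plasma proteins whose production by the liver rises during infection, injury or inflammation. Interleukin-6 and related cytokines act on hepatocytes through the gp130 receptor and STAT3, while interleukin-1 and tumor necrosis factor act through NF-kappaB, and both routes meet C/EBP factors on the promoters of these genes. The serum amyloid A proteins Saa1 and Saa2 are carried on high density lipoprotein and are the most inducible in mouse liver, Saa4 is the constitutive member, and Saa3 is a local form made by macrophages, adipocytes and epithelia as well as by stimulated liver. The orosomucoids Orm1, Orm2 and Orm3 are drug-binding lipocalins, haptoglobin (Hp) binds free haemoglobin, lipocalin 2 (Lcn2) withholds bacterial iron carriers and is also made by neutrophils and epithelia, and Apcs encodes serum amyloid P, the pentraxin that is the main acute phase marker of many mouse strains.

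The values are log2 expression values as the authors deposited them, so a difference of 1 is a doubling on that scale. Read totals cannot be recovered from such values and the depth of each library is unknown. Top1mt, the targeted gene, checks the labels: WT replicates 1, 2 and 3 read 7.71, 5.99 and 8.01, and KO replicates 1, 2 and 3 read 5.58, 6.41 and 6.32. At 5.99 the library labelled WT replicate 2 fell under KO replicates 2 and 3, which goes against its label. The transcript Gm42418 stood at 22.0 in KO replicate 1 against 11.7 to 15.8 in the other 5 libraries. Over genes, the r of KO replicate 1 was 0.976 with WT replicate 1 and 0.977 with KO replicate 2. It was 0.978 with WT replicate 3 and with KO replicate 3, and 0.981 with WT replicate 2. Pairs without KO replicate 1 lay between 0.980 and 0.983, so it stood somewhat apart from all but WT replicate 2. The reason was not tested. Groups were kept as labelled, and results were also computed without WT replicate 2, without KO replicate 1 and without both. The tumors are described as independent, so the spread given is between tumors, and the sources used here do not say whether each came from its own animal. Hepatocyte markers were high, with albumin (Alb) between 20.3 and 21.1, and all 15 of them were among the genes tested. In the comparison of KO with WT over all 22677 genes, limma called 0 genes at an adjusted p under 0.05 (0%), with 0.938 the smallest adjusted p, and 985 (4.34%) at an unadjusted p under 0.05, 580 lower in KO (2.56%) and 405 higher (1.79%). The 3 WT and 3 KO libraries did not overlap in 8.28% of genes, lower in KO in 4.33% and higher in 3.95%. The mean was lower in KO for 11860 of the genes tested and higher for 10817. These shares and counts are the background against which the counts below are given.

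The promoters of the members that differ most in pattern are shown first, since the Saa genes lie side by side. Saa3, Saa4, Saa1 and Saa2 occupy 42.3 kb of chromosome 7 (chr7:46711998-46754313, RefSeq, GRCm38.p6), in that order. Orm1, Orm3 and Orm2 are neighbours on chromosome 4, between chr4:63344556-63348163 and chr4:63362449-63365877. Hp is on chromosome 8 (chr8:109575128-109579172), Lcn2 on chromosome 2 (chr2:32384637-32387739) and Apcs on chromosome 1 (chr1:172893961-172895054). RefSeq promoter sequences were at hand for 8 of the 10 genes. Below are the 250 bases before the transcription start of 4 of them, 5′ to 3′ on the strand of the gene, with capitals marking matches to TTNNGNAA (the C/EBP core) or TTCNNNGAA (the STAT core), searched on both strands. They lie at chr7:46715677-46715926 (minus strand) for Saa3, chr7:46742981-46743230 (minus) for Saa1, chr7:46751583-46751832 (plus) for Saa2 and chr1:172895055-172895304 (minus) for Apcs. The Saa3 window lies within the annotated gene span and the Saa1 window overlaps it, since those spans end farther upstream than the start used here.
Saa3: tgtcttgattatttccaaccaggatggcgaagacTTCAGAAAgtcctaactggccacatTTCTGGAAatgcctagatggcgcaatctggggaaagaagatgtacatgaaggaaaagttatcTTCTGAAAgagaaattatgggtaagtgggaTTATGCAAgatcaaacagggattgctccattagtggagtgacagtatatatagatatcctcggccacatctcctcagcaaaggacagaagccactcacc
Saa1: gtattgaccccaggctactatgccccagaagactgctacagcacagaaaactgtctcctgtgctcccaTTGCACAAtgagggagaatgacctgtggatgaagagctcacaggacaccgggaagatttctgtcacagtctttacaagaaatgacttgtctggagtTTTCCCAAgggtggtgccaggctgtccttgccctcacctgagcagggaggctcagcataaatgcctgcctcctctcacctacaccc
Saa2: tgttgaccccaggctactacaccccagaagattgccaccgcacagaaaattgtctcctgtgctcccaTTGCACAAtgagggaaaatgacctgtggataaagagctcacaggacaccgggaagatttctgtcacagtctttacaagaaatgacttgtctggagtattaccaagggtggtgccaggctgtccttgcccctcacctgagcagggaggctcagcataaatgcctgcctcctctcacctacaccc
Apcs: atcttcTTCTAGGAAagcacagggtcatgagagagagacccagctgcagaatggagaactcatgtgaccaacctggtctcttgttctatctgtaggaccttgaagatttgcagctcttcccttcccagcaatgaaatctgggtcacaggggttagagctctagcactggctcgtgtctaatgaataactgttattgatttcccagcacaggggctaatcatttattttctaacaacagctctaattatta
The Saa1 and Saa2 promoters were alike at 94.8% of aligned positions, whereas the Saa3 promoter matched that of Saa1 at 52.2% and that of Saa2 at 52.4%. Saa3 had 4 C/EBP matches, Saa1 had 2 and Saa2 had 1, and the upstream match reads the same in Saa1 and Saa2. At least 1 such match was present in 36.8% of 32851 promoters of this length and at least 4 in 0.591%. Apcs had no C/EBP match and 1 STAT match, a motif found in 7.02% of promoters. None of the 8 promoters held the NF-kappaB consensus, which 3.9% of promoters did, and TATAAA (searched on the gene's strand, found in 7.59%) was present in Orm2 and Orm3. These matches describe letters in a window and were not tested for binding.

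To rank the members by level, the length of the annotated principal transcript was taken into account, which gives a log2 level per kb of transcript. Hp was the most abundant, between 14.98 and 15.80 log2 per kb, and its range overlapped that of no other member. Orm1 followed with a median of 12.9 log2 per kb over the 6 libraries, then Lcn2 with 12.5 and Apcs with 11.2. Their ranges overlapped, so that order is not beyond the spread between libraries. Saa4, Saa1, Saa3, Orm2 and Saa2 had medians of 9.70, 9.001, 7.79, 7.63 and 7.17 log2 per kb, again with overlapping ranges, and Orm3 was lowest at 4.09, its range reaching only that of Saa3. The place of Saa3 depends on the library and on its annotation. Saa3 lay above Saa1 by 1.78 and 1.85 log2 per kb in WT replicates 1 and 2 and below it by 4.04, 3.20, 0.38 and 2.88 in WT replicate 3 and KO replicates 1, 2 and 3 (differences of -4.04, -3.20, -0.38 and -2.88). A long second transcript of Saa3 raises its annotated exon length from 555 to 2606 bases, which would lower its median to 5.56 log2 per kb.

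Over the 6 libraries, Saa3, the serum amyloid A of extrahepatic cells, had the largest standard deviation of the members. In WT replicates 1, 2 and 3 its log2 values were 10.23, 9.45 and 6.85, and the KO replicates, in the same order, had 5.40, 7.03 and 4.98. WT replicates 1 and 2 were high, while WT replicate 3 lay just below KO replicate 2, so the groups overlapped. WT averaged 8.84 ± 1.77 (SD, n = 3), KO averaged 5.80 ± 1.08 (SD, n = 3), and KO minus WT was -3.04 with a standard error of 0.87. On the deposited scale the geometric mean of WT was thus 8.24-fold that of KO. This is the difference on which Saa3 was selected. It was -2.74 without WT replicate 2, -2.84 without KO replicate 1 and -2.54 without both, and ranged from -4.04 (without WT replicate 3) to -2.35 (without WT replicate 1) when single libraries were left out. The range over the 6 libraries, 5.25 log2 units, gave Saa3 a larger standard deviation than 99.8% of the genes tested. This spread includes the difference on which Saa3 was selected, and Saa2 (99.7%) and Orm2 (99.1%) ranked nearly as high. Within WT the SD was larger for Saa2 (2.31) and Orm2 (1.81) than for Saa3 (1.77). Within KO it was larger for Lcn2 (1.19) than for Saa3 (1.08).

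**Figure D1:**
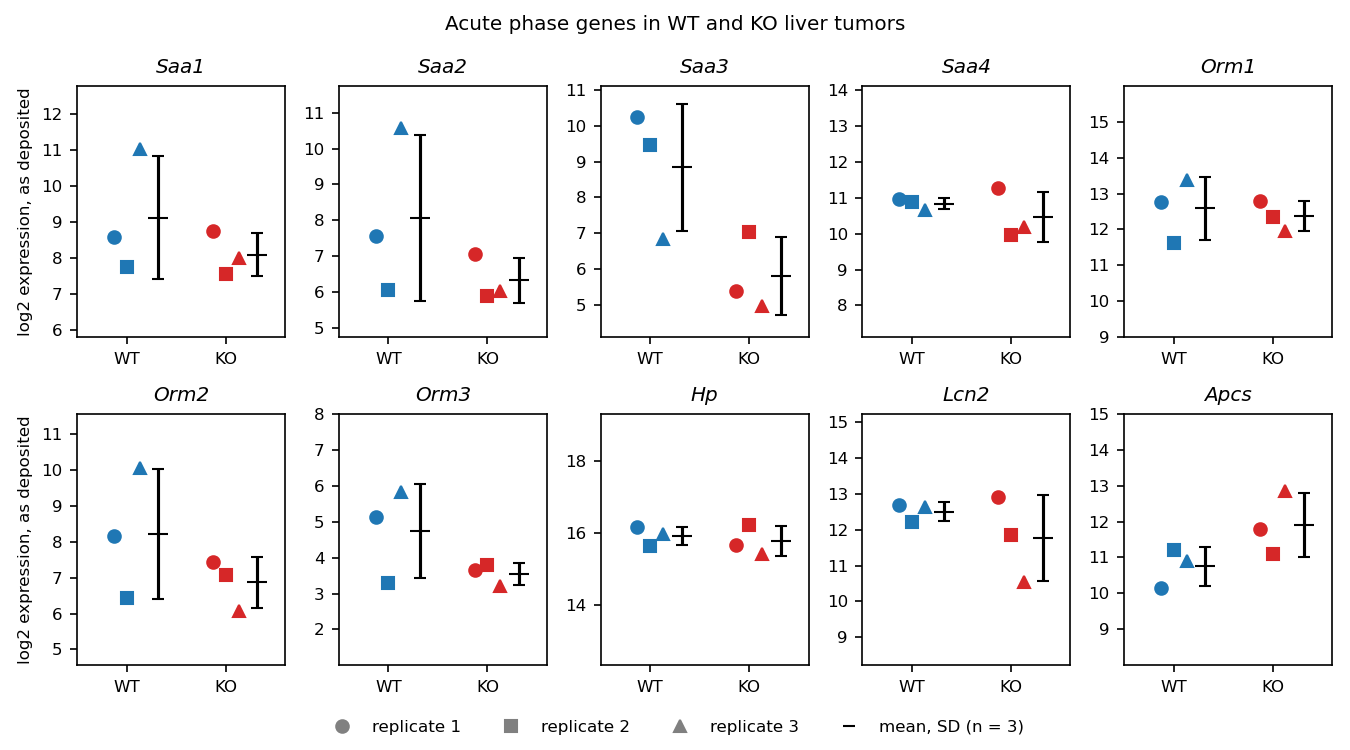
Log2 expression of the 10 members (vertical axes, log2 values as deposited, each panel spanning the same number of units) in the WT and KO libraries. Symbols mark replicates 1 to 3 and black bars the mean and SD of 3 libraries. Saa1, Saa2 and Orm2 were highest in WT replicate 3, Saa3 in WT replicate 1 and Apcs in KO replicate 3, and the WT and KO libraries overlapped in each panel.

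The hepatocyte members did not follow Saa3. Within each library, the mean log2 value of Saa1, Saa2, Saa4, Orm1, Orm2, Orm3, Hp and Apcs was subtracted from that of Saa3. Saa3 stood 0.30 and 0.34 above that mean in the first and second WT libraries. WT replicate 3 gave -4.20, and the KO libraries gave -4.40, -2.21 and -4.24. WT replicates 1 and 2 were thus apart from the other 4 libraries, and WT replicate 3 lay among the KO libraries. The WT libraries had 9.93, 9.11 and 11.05 as the mean of the 8 hepatocyte genes itself, and the KO libraries 9.80, 9.24 and 9.21, so it was highest in the WT library in which Saa3 was lowest. Averaged by genotype, Saa3 minus the hepatocyte mean came to -1.19 ± 2.61 (SD, n = 3) for WT against -3.62 ± 1.22 (SD, n = 3) for KO, which differ by -2.43. This became -1.67 without WT replicate 2, -1.28 without both WT replicate 2 and KO replicate 1, and -3.94 without WT replicate 3. Against single members, the libraries overlapped in Saa3 minus Saa1, Saa2, Saa4, Orm1, Orm2, Orm3 or Lcn2, and were separate in Saa3 minus Hp (WT -7.07 ± 1.76, KO -9.96 ± 0.67, SD, n = 3) and in Saa3 minus Apcs (-1.91 ± 2.07 and -6.11 ± 1.92, SD, n = 3). Both separations were narrow: WT replicate 3 and KO replicate 2 had -9.10 and -9.19 for Hp, and -4.05 and -4.07 for Apcs. All differences formed from Saa3 here carry the gap between the genotypes on which it was selected. Apcs had a higher mean in KO, which widens its own. Nothing is read from these separations.

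**Figure D2:**
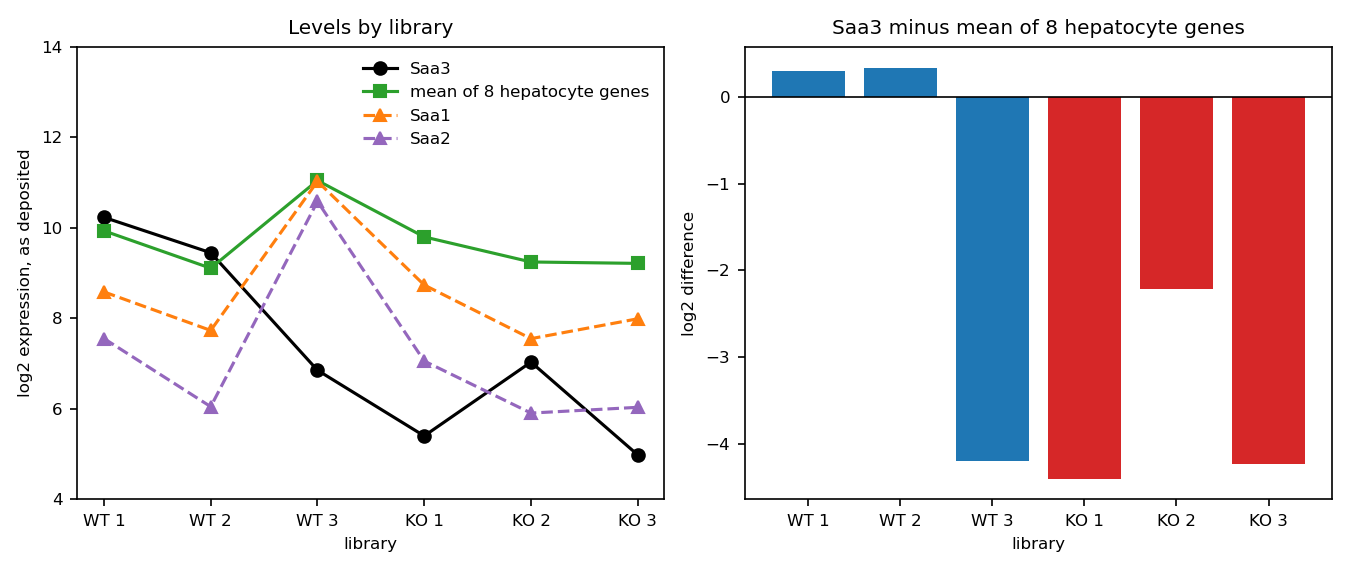
Left, log2 expression (as deposited) of Saa3, Saa1, Saa2 and the mean of 8 hepatocyte acute phase genes in each library; lines only join values of 1 gene, as libraries have no order. Right, Saa3 minus that mean (log2 difference), with WT in blue and KO in red. The 2 bars above 0 are WT replicates 1 and 2, and WT replicate 3, at -4.20, sits with the KO libraries.

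Saa1 and Saa2, the circulating inducible pair, peaked in a single WT tumor. Saa1 had log2 values of 8.58, 7.73 and 11.03 in WT and 8.73, 7.55 and 7.99 in KO. Saa2 had 7.55, 6.04 and 10.58 in WT and 7.05, 5.90 and 6.03 in KO. WT replicate 3 was highest for both by more than 2 log2 units, and the remaining libraries of both genotypes were intermixed. The log2 difference, KO minus WT, was -1.02 (standard error 0.76) for Saa1 and -1.73 (standard error 0.999) for Saa2. Without WT replicate 3 these were -0.07 and -0.47, so both rest on that library. Their transcripts share no identical stretch of 100 bases, but 13.2% of the 50-base windows of Saa1 also occur in Saa2. Per the study's methods, only uniquely mapped reads were used. Reads that match both genes exactly would be shorter than 100 bases, and such reads may be missing from both. Saa4, the constitutive member, which lies between Saa3 and Saa1 on the chromosome, was steadier, with 10.96, 10.87 and 10.67 in WT and 11.27, 9.96 and 10.19 in KO, a log2 difference of -0.36 (standard error 0.32). The genes on either side of the cluster, Saal1 and Hps5, differed by -0.06 (standard error 0.25) and -0.08 (standard error 0.13).

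The orosomucoid genes were also highest in WT replicate 3. Orm2 had log2 values of 8.17, 6.45 and 10.06 in WT and 7.44, 7.09 and 6.08 in KO, and Orm3 had 5.14, 3.29 and 5.82 in WT and 3.65, 3.79 and 3.20 in KO. Orm1, the major hepatic form, was less variable, with 12.76, 11.63 and 13.37 in WT and 12.80, 12.35 and 11.95 in KO. WT replicate 3 was highest and WT replicate 2 was low for all 3 genes. The log2 differences were -1.36 (standard error 0.81) for Orm2, -1.20 (standard error 0.66) for Orm3 and -0.21 (standard error 0.43) for Orm1. Without WT replicate 3 they were -0.44, -0.67 and 0.18, the last with its direction turned. Orm1 and Orm2 are close copies, sharing 20.4% of 50-base windows and 6.95% of 100-base windows, so their separate levels are uncertain to that extent.

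Haptoglobin, the most abundant member, differed least. Hp had log2 values of 16.15, 15.64 and 15.95 in WT and 15.66, 16.22 and 15.41 in KO, with a log2 difference of -0.15 (standard error 0.39) that changed to 0.03 without KO replicate 3. Lcn2 had 12.68, 12.21 and 12.63 in WT and 12.92, 11.85 and 10.54 in KO. The KO libraries included both the highest and the lowest value, and the log2 difference of -0.74 (standard error 0.52) was -0.12 without KO replicate 3 and -1.31 without KO replicate 1. Apcs was the 1 member with a higher mean in KO. Its values were 10.16, 11.21 and 10.90 in WT and 11.79, 11.10 and 12.85 in KO, with KO replicate 2 just below WT replicate 2. Its means were 10.75 ± 0.54 and 11.91 ± 0.89 (SD, n = 3), and KO minus WT was 1.16 on the log2 scale (standard error 0.44). Leaving out KO replicate 3 brought it to 0.69, and the highest value with a library left out was 1.57.

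Counted together, 9 of the 10 members had a lower mean in KO and 1 a higher mean, with a median log2 difference of -0.88 (-0.69 for the 8 hepatocyte members), beside -0.02 over all genes tested. The libraries of the genotypes overlapped in all 10 members, so 0 of 10 were separate against a background of 8.28%. Without WT replicate 2, 4 members were separate (Saa2, Orm2, Orm3 and Apcs, background 18.3%), and without KO replicate 1, 3 were (Saa2, Saa4 and Lcn2, background 21.5%). Without both libraries, 8 of 10 were separate, all but Saa3 and Hp, with a background of 33.7% for 2 libraries against 2. As the genes were chosen with this comparison known, nothing is read from these counts. In whole tissue, fewer cells of a type and less RNA per cell cannot be told apart.

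The members fell into patterns across the 6 libraries, given here as Pearson correlations over only 6 points that share their libraries and their scaling. Among Saa1, Saa2, Orm1, Orm2 and Orm3 the r ran from 0.83 (Saa1 with Orm3) to 0.99 (Saa1 with Saa2). Without WT replicate 3, Saa1 with Saa2 was still 0.91 and Orm2 with Orm3 0.91, whereas Saa1 with Orm3 was 0.50 and Saa1 with Orm2 0.64. Saa3 had an r of -0.12 with Saa1, 0.02 with Saa2 and -0.12 with Orm1, and after subtracting each genotype's mean the first 2 were -0.83 and -0.76. Apcs ran opposite to Saa3 (r = -0.81) and to Hp (r = -0.83). The r of Lcn2 with Apcs, -0.72, was 0.05 with 1 library left out. Lcn2 was most like Saa4 (r = 0.75).

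**Figure D3:**
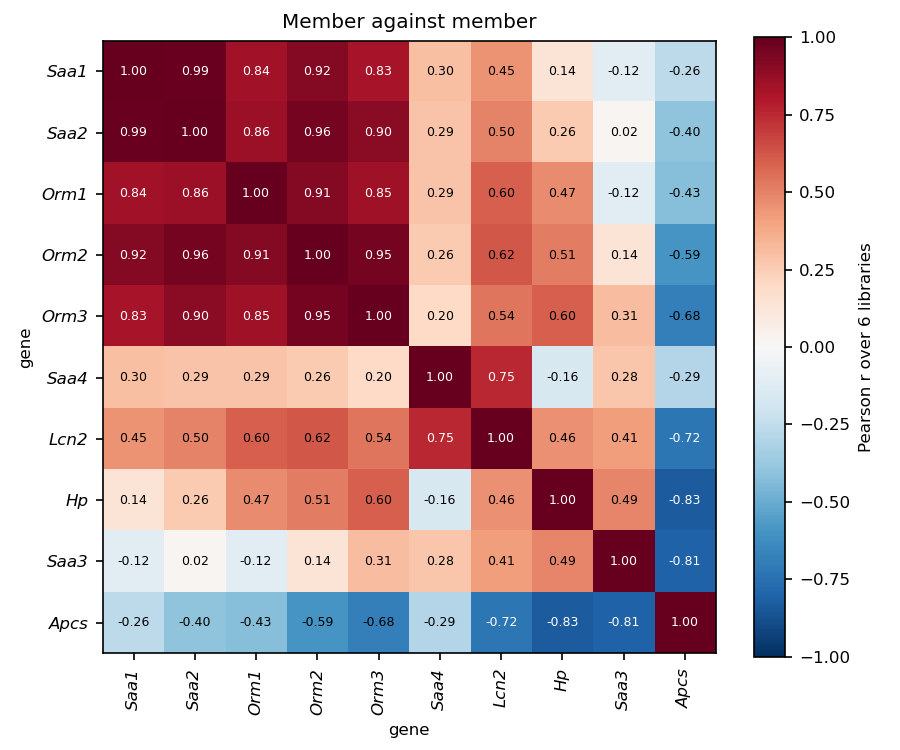
Pearson r between members over the 6 libraries (both axes list the 10 genes; red is positive and blue negative, with the value printed in each cell). The upper left block holds Saa1, Saa2 and the orosomucoid genes, at 0.83 to 0.99, while Saa3 runs from -0.12 to 0.31 against that block.

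The genes whose pattern was most like Saa3 were then ranked by Pearson r over the 6 libraries among 1117 genes with a standard deviation of at least 1. The first 10 were Rspo1 (r = 0.98), Sema3c (0.98), Slit3 (0.98), Upk3b (0.98), Msln (0.98), Bnc2 (0.97), Dmkn (0.97), Igfbp5 (0.96), Upk1b (0.96) and Bst1 (0.96). After each genotype's mean was subtracted their r was 0.89 to 0.98, and 6 of them remained among the 10 highest. Msln encodes mesothelin, and Upk3b and Upk1b encode uroplakins, all known from mesothelium, the cell layer that covers the liver surface and the peritoneum. Msln had log2 values of 6.98, 6.36 and 4.06 in WT and 2.84, 5.19 and 2.81 in KO. Upk3b had 6.72, 6.15 and 4.24 in WT and 2.83, 4.48 and 3.48 in KO. Both were high in WT replicates 1 and 2, intermediate in KO replicate 2 and WT replicate 3 and low in KO replicates 1 and 3, as Saa3 was. Dmkn, which encodes dermokine, had 5.60, 4.49 and 2.54 in WT and 0.66, 1.69 and 1.27 in KO. Its groups did not overlap, nor did those of Sema3c and Bnc2 among these 10, beside 8.28% of all genes tested. These genes were picked for likeness to Saa3, which was selected on its difference between the genotypes in these same libraries. A lower level in KO thus comes with the choice, and nothing is read from that separation.

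A list of mesothelial markers was written after these genes had been seen, so it holds genes chosen for likeness and supports nothing by itself. Of its 14 genes, 13 were in the table (Msln, Upk3b, Upk1b, Lrrn4, Wt1, Gpm6a, Bnc1, Nkain4, Pkhd1l1, Aldh1a2, Rspo1, Pdpn and Krt19). All 13 had a lower mean in KO, with a median log2 difference of -1.72, 4 had an unadjusted p under 0.05 in limma (0 adjusted), and the groups of 2, Pdpn and Krt19, were separate. That count of 4 was 1 without WT replicate 1, WT replicate 2 or KO replicate 1, 2 without KO replicate 3, 7 without KO replicate 2 and 12 without WT replicate 3, while the median stayed between -2.08 and -1.18. The list averaged 5.93, 5.01 and 3.20 in the WT libraries and 2.33, 4.11 and 3.05 in the KO libraries, and its r with Saa3 was 0.95 (Spearman's rho 0.94), or 0.72 without the 2 libraries in which Saa3 was farthest from its median. With the mean of the hepatocyte members the r was -0.20. By gene, the r with Saa3 ran from 0.62 for Wt1 to 0.98 for Rspo1 and was over 0.9 for 6 of the 13. Krt19 had 0.65, and -0.05 after each genotype's mean was subtracted. The list holds 4 of the 10 genes most like Saa3, so a high r of its mean comes with the choice. The log2 of the summed level of the 13 genes ran from 7.99 to 10.4 in WT and from 6.63 to 8.41 in KO. The lowest values were those of Nkain4 (-0.03) and Bnc1 (0.33), both in WT replicate 3, in a table whose lowest value is -2.24. The part of mesothelial tissue in the Saa3 difference was not tested.

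**Figure D4:**
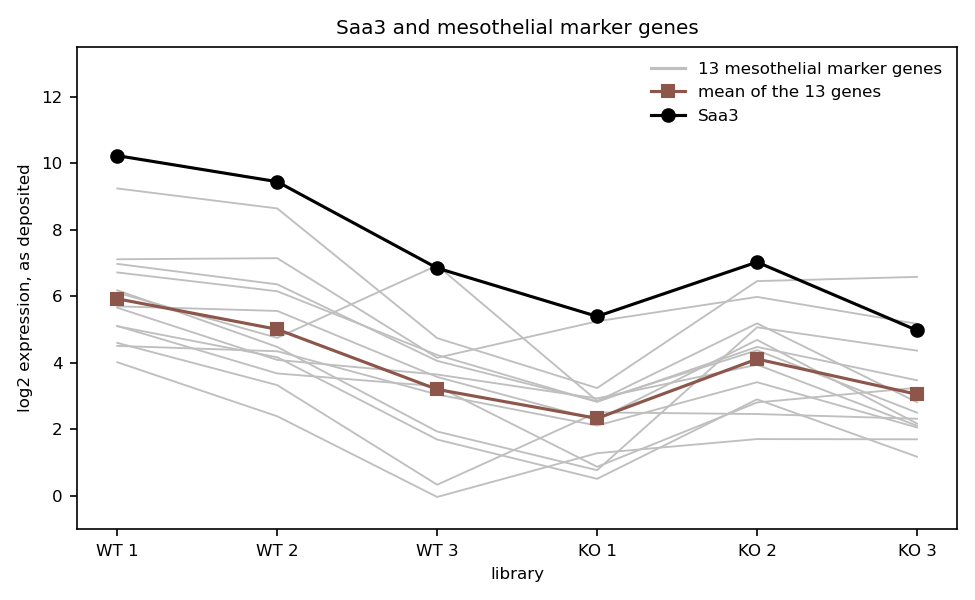
Log2 expression (as deposited) of Saa3, of 13 mesothelial marker genes and of their mean in each library; lines only join values of 1 gene. Saa3 and the mean of the 13 genes were both highest in WT replicates 1 and 2 (10.23 and 9.45 for Saa3, 5.93 and 5.01 for the mean), and the marker list was written after the genes most like Saa3 had been seen.

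Other cells that can make Saa3 were looked at through marker lists. Of 20 macrophage and Kupffer cell markers, 0 passed an adjusted p under 0.05 and 1 an unadjusted one, with a median log2 difference of -0.06 and a summed level (log2) of 14.1 to 14.6 in WT and 14.1 to 14.5 in KO. The 1 gene was Ccr2, a chemokine receptor of monocytes, named after its values were seen, with 7.38, 7.31 and 7.27 in WT and 6.34, 6.98 and 6.88 in KO, separate groups and an r of 0.77 with Saa3. Ly6c2, a marker of inflammatory monocytes, had 4.22, 5.76 and 4.65 in WT and 3.23, 3.90 and 4.30 in KO, and Itgam differed by -0.61 (standard error 0.38). The list mean had an r of -0.04 with Saa3. Of 9 adipocyte markers, several were near the bottom of the scale, with Adipoq between 0.15 and 0.79 and Plin1 between -0.67 and -0.34. Lep lay between -1.36 and -1.20 and Retn, named after its values were seen, between 0.32 and 1.38. Cfd was low as well, between 0.85 and 2.25. Others, named after their values were seen, were well expressed, with Fabp4 between 7.80 and 9.28, Cidec between 6.72 and 8.53 and Lipe between 6.67 and 7.74. Which cells expressed them was not tested. Plin4 and Cfd, which other cells also express, differed by -0.37 (standard error 0.26) and 0.65 (standard error 0.43). The r of the list mean with Saa3 was 0.72, but by gene it ran from -0.75 for Cfd to 0.89 for Plin4. It was 0.31 for Adipoq, 0.15 for Fabp4 and 0.20 for Lipe. Of 14 neutrophil markers, which bear on Lcn2, 12 had a lower mean in KO and 2 an unadjusted p under 0.05, with a median of -0.80. With single libraries left out the count ran from 0 (without WT replicate 3, KO replicate 1 or KO replicate 2) to 5 (without WT replicate 1), and the median was -0.33 without WT replicate 3. S100a8, a neutrophil calcium-binding protein, had 6.51, 7.35 and 8.30 in WT and 5.89, 5.42 and 6.67 in KO, and Elane differed by -1.21 (standard error 0.55). Their summed level (log2) ran from 8.97 to 10.6 in WT and from 8.75 to 9.40 in KO, and the list mean had an r of -0.06 with Lcn2 and 0.06 with Saa3.

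Epithelial and stromal markers were looked at in the same way. Of 10 bile duct markers, 3 had an unadjusted p under 0.05, all lower in KO, and the median was -1.20, the list mean having an r of 0.53 with Saa3. Krt19, a keratin of bile duct and also of mesothelium, had 6.11, 4.75 and 6.93 in WT and 2.86, 4.38 and 2.502 in KO, a log2 difference of -2.68 (standard error 0.69) with separate groups, and Epcam differed by -1.19 (standard error 0.56), also separate. Of 12 stellate cell and fibroblast markers, 11 had a lower mean in KO, with a median of -0.45 that was 0.02 without KO replicate 1, -0.10 without WT replicate 1 and -0.03 without both KO replicate 1 and WT replicate 2. The r between the list mean and Saa3 was 0.65. Lrat, which stores vitamin A in stellate cells, differed by -0.79 (standard error 0.29) and Lum by -0.76 (standard error 0.60). The 15 hepatocyte markers had a median of 0.19, which was -0.16 after quantile normalization, and their list mean had an r of -0.05 with Saa3 and -0.76 with the mean of the hepatocyte acute phase members. In that list Pck1 was lower in KO (-0.50, standard error 0.25) and Ttr higher (0.58, standard error 0.43), both with separate groups and neither past an adjusted p. Endothelial markers Cdh5 and Pecam1 differed by 0.40 and 0.16 (standard errors 0.16 and 0.12) with separate groups, over 9 genes with a median of 0.05. The 13 lymphocyte markers had a median of 0.10, with Cd3e at -1.03 and Cd3g at 0.90, both with separate groups but in opposite directions. The part of these cell types in the members' values was not tested.

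The cytokines that induce the acute phase genes differed widely in level. Il6 had log2 values of -0.01, 0.08 and 1.10 in WT and 0.07, 0.01 and -0.09 in KO, near the bottom of the scale, with its highest value in WT replicate 3. Il1b had 4.44, 3.79 and 6.76 in WT and 5.18, 5.23 and 5.91 in KO, again highest in WT replicate 3. Tnf had 3.16, 3.63 and 4.08 in WT and 2.53, 2.83 and 2.85 in KO, with separate groups and a log2 difference of -0.89 (standard error 0.45). Ctf1, the cytokine cardiotrophin 1, differed by -0.82 (standard error 0.62), which rests on KO replicate 1: it was -0.07 without that library and 0.03 without both that library and WT replicate 2. Of 11 cytokines tested, 0 had an adjusted p under 0.05 and 1 an unadjusted one, Il33 (-0.79, standard error 0.33, overlapping groups, named after its values were seen). The median was -0.30, and 0.095 without KO replicate 2. The r of Il6 with Saa1 was 0.93 and without WT replicate 3 0.10, so this likeness rests on that library.

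The receptors and their signalling partners differed little. None of 23 genes had an unadjusted p under 0.05, and the median log2 difference was -0.003. Il6ra, which binds interleukin-6, differed by 0.00 (standard error 0.41) and Il6st, which encodes gp130, by -0.09 (standard error 0.20). The 2 largest differences with separate groups were those of Irak1 (0.22, standard error 0.13) and Tnfrsf1a (-0.22, standard error 0.14), a kinase below the interleukin-1 receptor and a tumor necrosis factor receptor.

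Of 19 transcription factors that act on these promoters, 1 had an unadjusted p under 0.05, against 4.34% of all genes, and nothing is read from that count. The gene was Cebpb, with 9.37, 9.50 and 9.14 in WT and 8.72, 8.58 and 8.16 in KO, with separate groups and a log2 difference of -0.84 (standard error 0.18), between -0.96 and -0.68 when single libraries were left out. Its adjusted p in limma was 0.938. Its r was 0.86 with Saa3 and 0.25 with Saa1. The r with Saa3 carries the difference between the genotypes on which Saa3 was selected, as Cebpb also differed. Creb3l3, named after its values were seen, had overlapping groups and an r of 0.82 with Saa3. Cebpd, the C/EBP factor most induced by inflammation, differed by -0.14 (standard error 0.39) and Junb by -0.71 (standard error 0.39). Stat3, Nfkb1 and Rela differed by -0.01, 0.06 and 0.00 (standard errors 0.14, 0.12 and 0.19). The median of the list was -0.02, as over all genes tested.

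Genes known to be switched on by these routes were compared next, as transcript levels only. Of 26 feedback and target genes, 2 had an unadjusted p under 0.05, both lower in KO, and the median was -0.08. Socs3, the feedback inhibitor induced by STAT3, had 7.19, 6.95 and 8.55 in WT and 6.96, 6.38 and 6.71 in KO, highest in WT replicate 3. Its r was 0.97 with Saa1 (0.74 without WT replicate 3) and 0.08 with Saa3. Nfkbia, the inhibitor induced by NF-kappaB, had 9.48, 9.19 and 9.13 in WT and 8.89, 9.10 and 8.71 in KO, and its r was 0.93 with Saa3 and 0.13 with Saa1. The related genes Nfkbib, Nfkbie and Nfkbiz, named after their values were seen, did not share this, with an r of -0.79, -0.25 and 0.29 with Saa3. For the cytokines Il1b and Tnf, which act through NF-kappaB, it was -0.68 and 0.42. Nfkbia was lower in KO with separate groups, so its r with Saa3 carries the difference on which Saa3 was selected. Cxcl5, a neutrophil-attracting chemokine, had 2.77, 2.73 and 3.03 in WT and 2.03, 0.68 and 1.72 in KO. Over the whole list, the mean level had an r of 0.95 with the mean of the hepatocyte members (0.84 without WT replicate 3) and of 0.04 with Saa3.

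Among other acute phase genes, somewhat more had a higher than a lower mean in KO, and nothing is read from these counts. Of 23 further positive acute phase genes, 15 had a higher and 8 a lower mean in KO, and 0 had an unadjusted p under 0.05. Their median was 0.15, and 0.009 to 0.29 with single libraries left out. Il1rn, the interleukin-1 receptor antagonist, had 10.03, 10.59 and 9.01 in WT and 10.51, 7.90 and 7.78 in KO, and Mt2, a metallothionein, had 8.93, 9.27 and 8.52 in WT and 10.98, 8.73 and 10.74 in KO. Of 15 negative acute phase genes, whose production falls during the response, 10 had a higher mean in KO and the median was 0.16. Serpina6, the corticosteroid-binding globulin, was the 1 with an unadjusted p under 0.05, with 13.17, 12.81 and 11.64 in WT and 10.97, 11.85 and 11.70 in KO, and its r with Saa3 was 0.93. Saa3 was selected on its difference between the genotypes, and Serpina6 also had a lower mean in KO, so that r carries this difference.

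**Figure D5:**
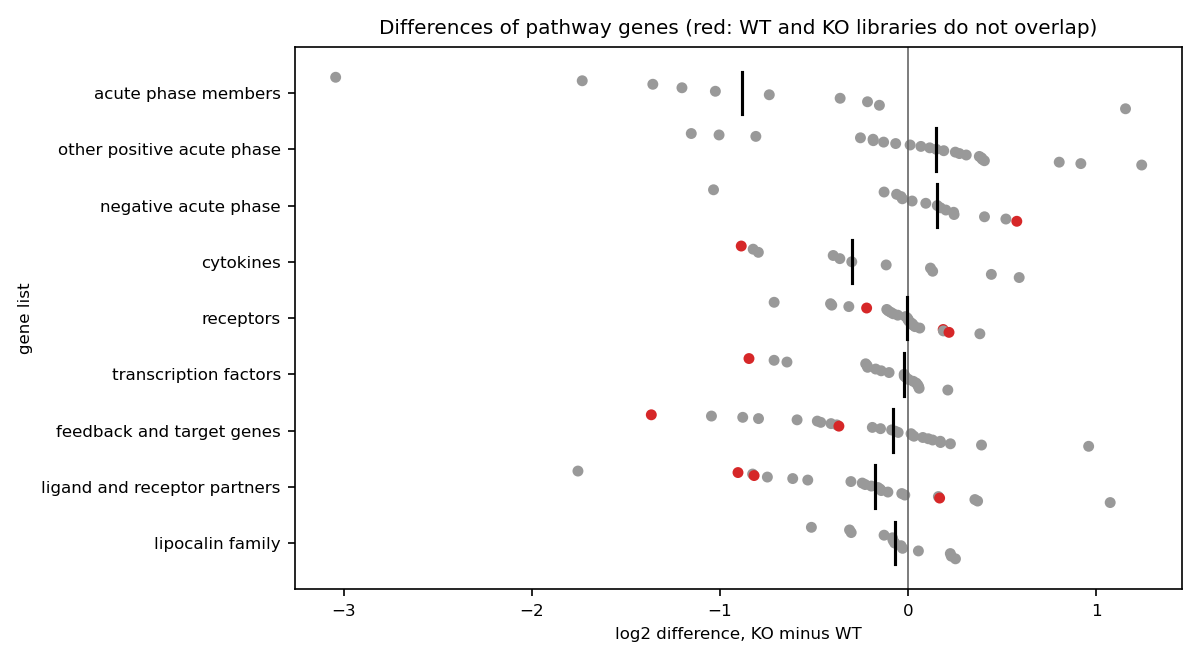
Log2 differences, KO minus WT (horizontal axis), of the members and of the genes tested in 8 lists of the pathway (vertical axis). Each point is a gene, red where the WT and KO libraries did not overlap, and the black line is the median of the list. The median of the members was -0.88 and those of the lists lay between -0.30 and 0.16.

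Binding partners of the members completed the comparison. Of 22 genes, 5 had an unadjusted p under 0.05, 4 lower and 1 higher in KO, with a median of -0.18. The count was 0 without WT replicate 1, 1 without KO replicate 2 and 3 without KO replicate 3, and 3 of the 5 genes are haemoglobin chains. Hbb-bs and Hba-a2, chains of the haemoglobin that haptoglobin binds, differed by -0.82 (standard error 0.29) and -0.90 (standard error 0.31) with separate groups. These transcripts come from red cells, and haemoglobin genes are near-identical copies whose counts may be split. Cd163, the macrophage receptor for haptoglobin bound to haemoglobin, had 6.61, 6.72 and 7.19 in WT and 8.34, 6.93 and 8.48 in KO, and Lrp2, an uptake receptor for Lcn2, had 7.27, 6.10 and 4.55 in WT and 4.04, 3.96 and 4.65 in KO. Cd163 and Lrp2 were named after their values had been seen, and their r with Saa3 was -0.90 and 0.87. Of 13 lipocalin family genes tested, 0 had an unadjusted p under 0.05, with a median of -0.07, and Lcn12 and Mup21 differed by -0.51 (standard error 0.43) and -0.31 (standard error 0.26).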

How the data were processed

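Values for 6 tumor libraries were log2 expression values that the authors deposited, 1 per gene symbol; the transform is not named in the sources used here, and weakly expressed genes appear drawn toward their mean, which understates their fold changes. Per the study's methods, the authors used Trimmomatic 0.36 for trimming and BWA for alignment of paired reads to a genome called Mm 8, kept unique ones, counted them with featureCounts and normalized and tested them with DESeq2; the submitters' processing notes instead name STAR 2.5.1 and GRCm38. Which was used could not be settled. Depth is unknown. The 3 unnamed columns hold a few leftover values (mostly ratios of the authors' group means) and were not used; 0 other columns of per-sample values exist.

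KO was set against WT by limma 3.58.1 under R 4.3.3 (lmFit, eBayes with trend, Benjamini-Hochberg) over genes with a mean above the lowest 25%, and the procedure was tested on simulated data. Alternatives were no trend, quantile normalization, median centring, other filters, the replicate block and leaving out libraries. Saa3 was set against the mean of 8 hepatocyte members within each library, with Lcn2 kept apart. Lengths are of GENCODE M21 principal transcripts and promoters are from RefSeq (GRCm38.p6). Members and lists were chosen with earlier results of these data known. Named genes are the members, in each list the 2 with the largest difference and separate groups (or the 2 largest), 11 set regulators, the 10 most like Saa3 and Top1mt; others are said to be named after their values were seen. Removing WT replicate 2 and KO replicate 1 together, and the mesothelial list, were chosen after seeing the data.

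Same-numbered libraries deviated with correlations of -0.12, -0.08 and 0.05, against -0.06 to 0.13 for libraries of different number. These values do not show that replicate numbers pair the libraries, and with 3 libraries a group they cannot exclude it.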

Additional observations from a re-analysis of the deposited data

How the results depend on the processing

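The log2 difference of Saa3, the difference of Saa3 minus the hepatocyte members and the number of members lower on average in KO kept their direction under each alternative run, Saa3 between -4.04 and -2.35 and Saa3 minus the hepatocyte members between -3.94 and -1.28. Taking the median of the hepatocyte members gave -2.51 and including Lcn2 gave -2.42. With the replicate block, 912 genes had an unadjusted p under 0.05 and 0 an adjusted one, against 985 and 0 without it, and the difference of Saa3 was again -3.04; the correlations above do not show that the numbers pair the libraries. The count at an unadjusted p was 590 with the filter at the median of genes, where fewer genes were tested. The count at an adjusted p was 4 with no filter and between 0 and 1 when single libraries were left out, the 1 arising without KO replicate 1; the cause was not tested. Leaving out single libraries gave 860 to 1356 genes at an unadjusted p. The median of the hepatocyte markers turned to -0.16 under quantile normalization, and that of the cytokines ranged from -0.36 to 0.095 when single libraries were left out, turning without KO replicate 2. Leaving out single libraries also took the median of the stellate cell and fibroblast markers to between -0.78 and 0.02, of the macrophage markers to between -0.22 and 0.12, of the lymphocyte markers to between -0.12 and 0.28 and of the lipocalin family to between -0.19 and 0.085, and it took the receptors and the endothelial markers across 0 as well. Neither scaling moved the median of all genes by more than 0.1. With 3 libraries a group and no counts, small differences of weakly expressed genes cannot be resolved.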

Other observations

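Other members had their own nearest patterns, ranked as for Saa3 and named after their values were seen. Haptoglobin was most like Ncr3-ps (r = 0.98), Gsta2 (0.98), Gm11892 (0.97), Ugt1a7c (0.96), Gstm3 (0.95) and Cbr3 (0.95), of which Gsta2 and Gstm3 are glutathione transferases, Ugt1a7c is a glucuronosyltransferase and Cbr3 a carbonyl reductase, enzymes that process foreign compounds. Gsta2 had log2 values of 8.72, 6.04 and 7.55 in WT and 6.42, 9.20 and 5.87 in KO, and Gstm3 had 12.80, 9.23 and 11.40 in WT and 10.86, 13.27 and 9.25 in KO. Both followed Hp in being highest in KO replicate 2 and WT replicate 1, over a range several log2 units wider than that of Hp itself. Gsta1 was also among the first 10, at 0.94.

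Apcs was most like Vmn2r3 (r = 0.98), Loxl4 (0.96), Nupr1 (0.95), Areg (0.94) and Ifi214 (0.94). Vmn2r3 had 1.20, 3.04 and 2.33 in WT and 6.40, 3.40 and 9.59 in KO, and Nupr1, a stress-induced nuclear protein, had 5.70, 7.07 and 6.17 in WT and 7.41, 6.47 and 10.69 in KO. Both were highest in KO replicate 3, like Apcs. Lcn2 was most like genes that were low in KO replicate 3, among them Ly6d (r = 0.96), with 10.45, 10.34 and 10.38 in WT and 11.05, 10.10 and 7.51 in KO, and Mirg (r = 0.96), with 6.49, 5.20 and 8.32 in WT and 7.87, 3.11 and 0.09 in KO.

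Saa1 was most like Saa2, followed by Lrtm1 (r = 0.95), with 4.62, 3.59 and 7.56 in WT and 4.38, 4.34 and 3.84 in KO. Several of its first 10 genes were high in WT replicate 3 only: Dmbt1, a secreted scavenger receptor of epithelia, was at 6.85 there and between -0.37 and 0.09 in the other libraries, and Olfm4 was at 3.94 there and between 0.34 and 1.05 elsewhere. Without WT replicate 3 their r with Saa1 was 0.10 for both, against 0.91 for Saa2 and 0.57 for Lrtm1.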
